A study of Mus musculus with 4 samples.

Results

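The insulin-like growth factor (IGF) system was followed through 10 of the 32681 genes listed by symbol: the ligands Igf1 and Igf2, the receptors Igf1r and Igf2r, and the binding proteins Igfbp2, Igfbp3, Igfbp4, Igfbp5, Igfbp6 and Igfbp7. They were chosen by name, and all 10 were found. The data are RNA sequencing of primary neuron cultures from the neocortex of wild-type CD-1 mice, an outbred strain, at embryonic day 13. A control short hairpin RNA (shRNA) was transfected into 2 cultures and an shRNA against DcpS, the scavenger decapping enzyme that hydrolyses the cap left after 3′-to-5′ mRNA decay, into the other 2. Every culture was grown in Neurobasal medium with B27, and the labels name no further difference between the groups. They describe 1 knockdown construct, a set 1 and a set 2 in each group, and no separate litters. The spread behind each p-value is that between these cultures and may be technical in origin.

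IGF-1 and IGF-2 are small secreted proteins that promote growth and survival. Both signal through the receptor tyrosine kinase IGF1R, which acts through insulin receptor substrates on the PI3K-AKT-TOR and RAS-MAP kinase routes. IGF2R, the cation-independent mannose 6-phosphate receptor, carries IGF-2 and lysosomal enzymes to the lysosome and is not known as a growth-signalling receptor. The binding proteins hold the ligands outside the cell and can limit or prolong their action. In developing brain the pathway is known for promoting progenitor division and brain growth. Igf2 is known as a product of meninges and choroid plexus, and Igf1 of some neurons and microglia. B27 supplement contains insulin, which can also act on this family of receptors.

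Libraries held 17754768 to 21793685 reads, which were recovered from the deposited values; a count of 0 allows up to 3 reads. Dcps was at 499.8 and 506.6 normalised reads in controls 1 and 2, and at 114.5 and 119.6 in the DcpS shRNA libraries. The labels name neurons, and neuronal markers were abundant in every library: Dcx had a mean of 25063 normalised reads and Tubb3 of 19623. Of all 18110 genes tested, 3.65% were lower and 2.14% higher under DcpS shRNA at the threshold used throughout, a Benjamini-Hochberg adjusted p of 0.05 in limma.

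Short sequences in 3′ UTRs are shown first because 1 member and several genes of its pathway carry them. An earlier look at these same data found that 2 words of 7 bases, ACGTGCA with its overlapping partner CACGTGC, were frequent in the 3′ UTRs of genes lower with DcpS shRNA, and that both lie in the Dcps transcript. The words were therefore chosen with these data known. They overlap each other by 6 bases and were searched on the transcript strand of every annotated 3′ UTR (GENCODE M21, GRCm38). Among the members only Igf1r carries one, at 2 places in a 3′ UTR of 7267 bases, starting at bases 793 and 5500. The lines below give the Dcps site and both Igf1r sites, 5′ to 3′ on the transcript strand with the word in capitals. The sites lie at chr9:35124746-35124774 (minus strand), chr7:68227183-68227211 (plus) and chr7:68231890-68231918 (plus).
Dcps: actatcacctgCACGTGCatttcacagct
Igf1r, first site: catttgagagaCACGTGCtgaggcccccc
Igf1r, second site: tagagctaagtCACGTGCggaaggactca

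A word stood in the 3′ UTR of 9.48% of tested genes that have one annotated and in 34.7% of those lower with DcpS shRNA. For the 9 tested members the share was 11.1%, and for the 5 lower members 20%, in each case through Igf1r alone. Words were thus about as frequent in the members as in all tested genes. Long 3′ UTRs hold more words: of tested genes with at least 5000 bases, 25.7% had one, and of the lower genes among these 45.1%. A match is a description of letters, and its part in any change was not tested. The sequence of the shRNA is not given in the sources used here, so the words were not compared with it.

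The binding proteins Igfbp2 and Igfbp5 had the most abundant transcripts of the system, and the other binding proteins lay below Igf2r. Levels are compared between genes as normalised reads per kb of exon, averaged over the 4 libraries. Igfbp2 led with 1364 per kb, above 96.0% of tested genes, and Igfbp5 followed with 766 per kb, above 92.1%. Igf2r stood at 220, Igfbp3 at 173, Igf1r at 130 and Igfbp4 at 91.1 per kb. Igfbp7 at 37.2, Igf2 at 12.04, Igfbp6 at 3.07 and Igf1 at 1.33 per kb closed the order. Neighbours in this order did not overlap within either group, except Igfbp6 and Igf1 in the controls, where Igf1 spanned 1.25 to 2.38 and Igfbp6 1.71 to 1.84 per kb. Thus both ligands were scarce beside the receptors in every library, and the pair Igfbp2 and Igfbp5 made up most of the binding protein signal.

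**Figure D1:**
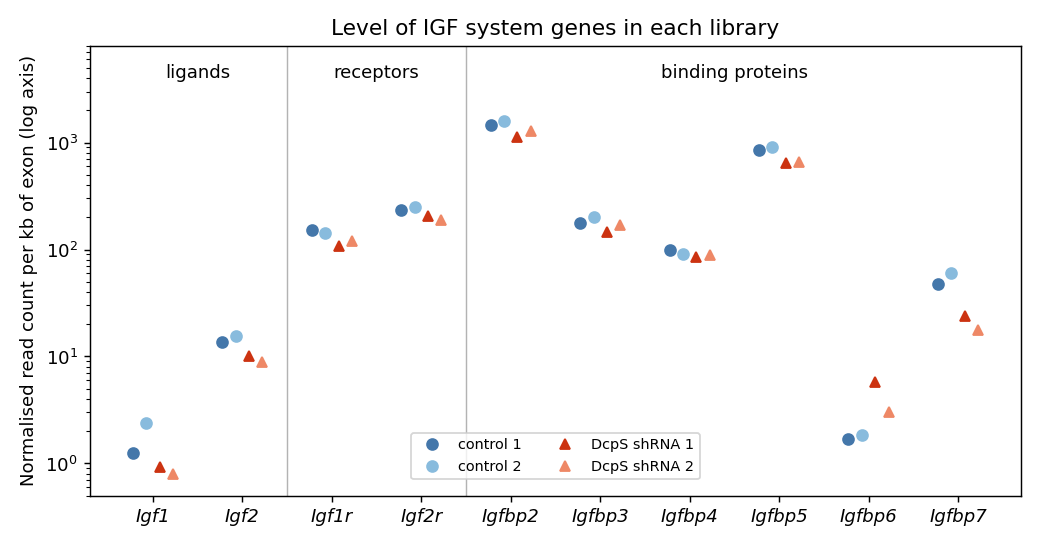
Normalised read count per kb of exon (log axis) for each of the 10 IGF system genes, grouped by role; circles are the 2 control libraries and triangles the 2 DcpS shRNA libraries. Igfbp2 and Igfbp5 lie highest in all 4 libraries, Igf1 and Igfbp6 lowest, and the triangles lie below the circles for every gene but Igfbp6.

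With DcpS shRNA, transcripts of both receptors and of 3 binding proteins were lower, at 38.8% to 81.8% of the control mean, and none of the system was called higher. Of the 10 members, 5 were lower (Igf1r, Igf2r, Igfbp2, Igfbp5 and Igfbp7), 4 did not pass the test and 1, Igfbp6, had too few reads to be tested. Over all tested genes 3.65% were lower. The median log2 fold change of the 9 tested members was −0.36, against 0.00074 over all genes tested. In each of these 9 both DcpS shRNA libraries lay below both controls, a pattern seen in 24% of all genes tested; Igf1 passed the filter on reads through its control libraries alone, so its place among the 9 is not independent of its direction. Cultures are mixtures, and fewer cells of a type cannot be told apart from less RNA per cell.

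**Figure D2:**
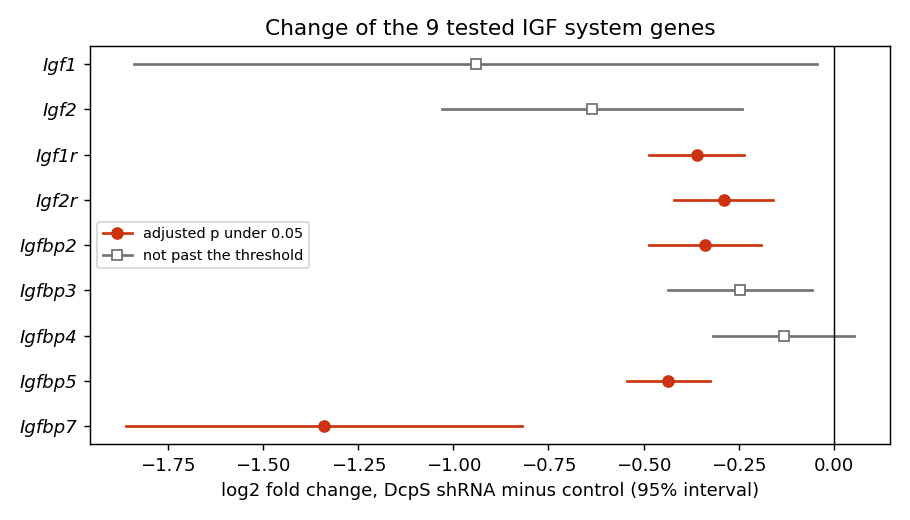
Log2 fold change (DcpS shRNA minus control) of the 9 tested genes with its 95% interval from limma; filled red circles passed an adjusted p of 0.05 and open grey squares did not. All 9 points lie below 0, from −0.13 for Igfbp4 to −1.34 for Igfbp7, and only the interval of Igfbp4 crosses 0.

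Igf1r encodes the signalling receptor (chr7:67952827-68233668, plus strand, GRCm38). Normalised reads numbered 2530 and 2391 under control shRNA, against 1830 and 2004 under DcpS shRNA. The groups did not overlap, and DcpS shRNA 1 was the lowest library. Group means were 2460 ± 98.8 for control and 1917 ± 123 for DcpS shRNA (SD, n = 2 each), which is 77.9% of control. The log2 fold change was −0.36 (SE 0.06; limma, Benjamini-Hochberg adjusted p 0.00131). This is the member with the 2 CACGTGC sites printed above.

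Igf2r encodes the lysosomal sorting receptor that also clears IGF-2 (chr17:12682406-12769664, minus strand). Counts were 2164 and 2346 under control shRNA, against 1933 and 1758 under DcpS shRNA. Control 2 was the highest library and the groups did not overlap. Group means were 2255 ± 129 for control and 1845 ± 124 for DcpS shRNA (SD, n = 2 each), with a log2 fold change of −0.29 (SE 0.06; limma, Benjamini-Hochberg adjusted p 0.00962). Without control 2 the value was −0.23 and the call ended (limma, Benjamini-Hochberg adjusted p 0.114). Igf2r has no word in its 3′ UTR of 1304 bases. Per kb, Igf1r stood at 0.525 to 0.648 of Igf2r in the 4 libraries, and the groups overlapped in this ratio.

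Igfbp5 and Igfbp2 are neighbours that are transcribed towards each other on chromosome 1, with 5457 bases between the ends of the genes. Igfbp2 lies at chr1:72824503-72852474 (plus strand) and Igfbp5 at chr1:72857932-72874884 (minus strand). Their promoter windows, 250 bases before to 50 after an annotated start (RefSeq, GRCm38.p6), are shown because these 2 most abundant members fell together. The windows are chr1:72824230-72824529 (plus strand, the first of 2 windows listed for Igfbp2) and chr1:72874816-72875115 (minus strand). Capitals mark matches on either strand to the GC box GGGCGG, the TATA box word TATAAA, the CAAT box word CCAAT, the FOXO word GTAAACA or the E-box CACGTG.
Igfbp2: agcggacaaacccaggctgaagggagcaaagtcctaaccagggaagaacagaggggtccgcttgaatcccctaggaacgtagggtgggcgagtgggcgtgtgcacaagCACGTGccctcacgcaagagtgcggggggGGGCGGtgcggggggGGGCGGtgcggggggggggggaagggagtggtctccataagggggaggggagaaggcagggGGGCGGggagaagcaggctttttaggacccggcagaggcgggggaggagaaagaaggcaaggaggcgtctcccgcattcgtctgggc
Igfbp5: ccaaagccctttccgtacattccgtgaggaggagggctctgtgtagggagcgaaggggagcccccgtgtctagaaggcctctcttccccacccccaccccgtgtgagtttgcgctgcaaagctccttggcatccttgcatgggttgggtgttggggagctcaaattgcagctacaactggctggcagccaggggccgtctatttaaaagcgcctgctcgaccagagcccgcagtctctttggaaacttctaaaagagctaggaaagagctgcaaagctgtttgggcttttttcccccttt

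The Igfbp2 window shown holds 3 GC boxes and 1 E-box, while the second Igfbp2 window and the Igfbp5 window hold none of the 5 motifs. Of the other lower members, the Igfbp7 window holds 4 GC boxes, that of Igf1r 2, and that of Igf2r 3 GC boxes and 2 E-boxes. Of all 32851 promoter windows of this length, 35.7% hold the GC box, 13.6% the TATA box word, 37.4% the CAAT box word, 3.6% the FOXO word and 7.2% the E-box. CACGTG also makes up 6 letters of CACGTGC, but Igfbp2 has no word in its 3′ UTR of 312 bases. No link between the promoter motif and the 3′ UTR word was tested. No motif of the set stood in a window of every member, and the FOXO word was found in 0 of their 14 windows.

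Igfbp5, a binding protein that also attaches to extracellular matrix, had counts of 5159 and 5416 under control shRNA, against 3877 and 3945 under DcpS shRNA. The DcpS shRNA libraries lay close together and well below both controls. Group means were 5288 ± 181 for control and 3911 ± 48.0 for DcpS shRNA (SD, n = 2 each), to 74.0% of control. The log2 fold change was −0.43 (SE 0.05), with the smallest p of the members (limma, Benjamini-Hochberg adjusted p 7.06e-05). Its 3′ UTR of 4445 bases has no word.

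Igfbp2, a binding protein known to be abundant in embryonic brain, had counts of 2672 and 2954 under control shRNA, against 2066 and 2387 under DcpS shRNA. The groups did not overlap, although DcpS shRNA 2 came nearer to the controls. Group means were 2813 ± 199 for control and 2227 ± 227 for DcpS shRNA (SD, n = 2 each), and the log2 fold change was −0.34 (SE 0.07; limma, Benjamini-Hochberg adjusted p 0.00802). Summed over the 6 binding proteins, the level was 2629 and 2854 reads per kb under control shRNA, against 2027 and 2227 under DcpS shRNA. Igfbp2 supplied 55.0% to 58.0% of that sum and Igfbp5 29.5% to 32.7% in the 4 libraries, and both shares overlapped between the groups while the sums did not.

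Igfbp7, a secreted relative with low affinity for IGFs that is known from blood vessels, showed the largest fall of the members that were called (chr5:77349240-77408041, minus strand). Counts were 57.0 and 72.8 under control shRNA, against 29.1 and 21.2 under DcpS shRNA, from 60, 71, 32 and 19 reads. The groups stood far apart relative to the spread within each. Group means were 64.9 ± 11.2 for control and 25.2 ± 5.54 for DcpS shRNA (SD, n = 2 each), to 38.8% of control, with a log2 fold change of −1.34 (SE 0.25; limma, Benjamini-Hochberg adjusted p 0.00317). An opposite-strand gene, Polr2b, covers 7.0% of the Igfbp7 exon bases; its own log2 fold change was −0.05, and whether reads were assigned by strand is not given in the sources used here.

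Igfbp3, the main carrier of IGFs in blood, did not pass. Its counts were 550.1 and 624.5 under control shRNA, against 459.7 and 530.8 under DcpS shRNA, so DcpS shRNA 2 lay only just below control 1. The log2 fold change was −0.25, with a 95% interval from −0.44 to −0.06 (limma, Benjamini-Hochberg adjusted p 0.136). The outcome turned on single libraries: in limma the adjusted p was 0.0371 without control 1 (−0.34) and 0.0108 without DcpS shRNA 2 (−0.35). Without control 2 the value was −0.16 (0.594) and without DcpS shRNA 1 it was −0.14 (0.425), and DESeq2 gave an adjusted p of 0.510. Igfbp4, a binding protein known as an inhibitor of IGF action that the protease PAPP-A cleaves, had counts of 438.0 and 404.1 under control shRNA, against 378.9 and 388.9 under DcpS shRNA. Its log2 fold change of −0.13 (95% interval −0.32 to 0.05; limma, Benjamini-Hochberg adjusted p 0.462) was the smallest of the tested members, and without control 1 it was −0.07. Igfbp6, which prefers IGF-2, gave 2 and 2 reads under control shRNA, against 7 and 3 with DcpS shRNA, too few for a fold change.

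Neither ligand passed the test. Igf2 (chr7:142650766-142666816, minus strand) had counts of 78.9 and 89.2 under control shRNA, against 57.2 and 50.3 under DcpS shRNA. The groups did not overlap, and the mean was 84.0 ± 7.32 in the controls and 53.8 ± 4.92 with DcpS shRNA (SD, n = 2 per group). The log2 fold change was −0.64 (95% interval −1.03 to −0.24; limma, Benjamini-Hochberg adjusted p 0.0560). With 1 library left out the adjusted p in limma was 0.0296 without DcpS shRNA 1, where the test was passed, 0.0780 without control 1, 0.153 without DcpS shRNA 2 and 0.297 without control 2. DESeq2 gave an adjusted p of 0.439. GENCODE M21 lays a second gene, Gm49394, over 62.8% of the Igf2 exon bases on the same strand, and the antisense gene Igf2os over 1.7%. Gm49394 is not among the 32681 genes listed, so it has no count of its own here. How reads that fit more than one gene were counted is not given, so the level of Igf2 is uncertain.

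Igf1 (chr10:87858265-87937042, plus strand) was at the edge of detection. Only 13 and 23 reads were recovered under control shRNA, against 10 and 7 with DcpS shRNA, and its per-kb level was below that of nearly every other tested gene. Normalised counts were 12.4 and 23.6 against 9.09 and 7.82, so the controls differed from each other by more than control 1 differed from the DcpS shRNA libraries. The log2 fold change of −0.94 had a 95% interval from −1.84 to −0.04 (limma, Benjamini-Hochberg adjusted p 0.245). The value was −0.50 without control 2 (0.844) and −1.38 without control 1 (0.186).

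A list of 8 genes held those of the Igf2 locus, the Igf2r antisense RNA Airn and the IGF2BP family, RNA-binding proteins named for Igf2 mRNA. Of 6 tested, 2 were lower, 1 was higher and 3 did not pass, with a median log2 fold change of −0.59. Those that did not pass were Airn (−0.77, from 13 to 32 reads per library), Igf2os (−0.53) and Igf2bp2 (0.17). The 2 tested genes of the locus itself both had values below 0, H19 with a call and Igf2os without one (−0.53; limma, Benjamini-Hochberg adjusted p 0.533). H19, the imprinted non-coding RNA beside Igf2, had counts of 624.3 and 850.2 under control shRNA, against 432.5 and 497.3 under DcpS shRNA, and a log2 fold change of −0.65 (SE 0.14; limma, Benjamini-Hochberg adjusted p 0.0305). That call ended without DcpS shRNA 1 (0.141), without DcpS shRNA 2 (0.0647) and in DESeq2 (0.143; Benjamini-Hochberg adjusted p), and without control 2 the value was −0.43. Igf2bp3 was at 777.2 and 743.5 under control shRNA, against 522.4 and 398.9 under DcpS shRNA (log2 fold change −0.73, SE 0.11; limma, Benjamini-Hochberg adjusted p 0.00106). Igf2bp1, on chromosome 11, was higher, from 1005 and 1155 to 1281 and 1273 (0.24, SE 0.07; limma, Benjamini-Hochberg adjusted p 0.0448), a call lost without control 1 (0.485) and in DESeq2 (0.220).

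Igf2bp3 carries the words at 2 separate places in its 3′ UTR of 2119 bases, starting at bases 89 and 530, and Igf2bp1 has none. The Igf2bp3 sites lie at chr6:49087236-49087264 and chr6:49086795-49086823, both on the minus strand. They are printed so that the letters can be compared with those of Dcps. The third paralog, Igf2bp2, has no word either and did not pass (log2 fold change 0.17). The part of the words in these values was not tested.
Igf2bp3, first site: ccatccagaacCACGTGCacgagttttta
Igf2bp3, second site: cagggtattaaACGTGCAtttttactcaa

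In the 7 lists of genes around the system, 11 genes were lower and 4 higher of 104 tested, which is 14.4% called against 5.79% of all genes tested. These counts include the Igf2 locus list above. Lower calls made up 11 of the 104, against 3.65% of all genes tested. The median log2 fold change of the 104 was −0.01. With 1 library left out, 12 to 14 were lower and 1 (without control 1) to 7 (without DcpS shRNA 2) higher. The lists were drawn up from general knowledge of the pathway, with earlier results of these data known.

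Among insulin receptor family and adaptor genes, 2 of 17 tested were lower and none higher. Grb2, the adaptor that links receptors to RAS, was at 3411 and 3414 under control shRNA, against 2682 and 2771 under DcpS shRNA (log2 fold change −0.32, SE 0.05; limma, Benjamini-Hochberg adjusted p 0.00106). Insr, the insulin receptor and a close relative of Igf1r, was at 2190 and 2170 against 1959 and 1778 (−0.22, SE 0.06; limma, Benjamini-Hochberg adjusted p 0.0324). Insr lost its call without control 1, control 2 or DcpS shRNA 2 (limma, Benjamini-Hochberg adjusted p 0.142, 0.114 and 0.104) and in DESeq2 (0.135).

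In the PI3K, AKT, TOR and FOXO list 2 of 27 were lower and none higher. Pik3r1, the regulatory subunit that couples PI3K to receptors, was at 2684 and 2884 under control shRNA, against 1913 and 1941 under DcpS shRNA (log2 fold change −0.53, SE 0.06; limma, Benjamini-Hochberg adjusted p 1.90e-05). Rps6kb1, the ribosomal protein S6 kinase downstream of TOR, was at 1698 and 1782 against 1163 and 1125 (−0.60, SE 0.06; limma, Benjamini-Hochberg adjusted p 7.28e-06). In the RAS and MAP kinase list 3 of 19 were lower and none higher: the kinases Map2k1 (−0.45, SE 0.08) and Braf (−0.28, SE 0.05) and the phosphatase Dusp4 (−0.27, SE 0.07). The call of Dusp4 was lost when control 1 was left out (limma, Benjamini-Hochberg adjusted p 0.333) and in DESeq2 (0.184).

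FOXO factors are held out of the nucleus when AKT is active, and genes known as their targets gave 1 lower and 2 higher calls of 14. Sesn3, a sestrin that restrains TOR, was at 1803 and 1871 under control shRNA, against 1068 and 1024 under DcpS shRNA (log2 fold change −0.81, SE 0.06; limma, Benjamini-Hochberg adjusted p 6.72e-07). Its relative Sesn1 (0.20, SE 0.06) and the mitochondrial superoxide dismutase Sod2 (0.27, SE 0.06) were higher. The call of Sesn1 ended in 9 of 14 other settings, edgeR and DESeq2 among them, and that of Sod2 without control 1 (limma, Benjamini-Hochberg adjusted p 0.227). Targets of FOXO were thus called in both directions.

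Of the 11 proteases and other carriers of IGFs that were tested, 1 was lower, the metalloproteinase Adamts1 (log2 fold change −0.46, SE 0.09; limma, Benjamini-Hochberg adjusted p 0.00352). Igfbpl1, a binding protein-like gene of young neurons, had the most reads of the list and counts of 6750, 6799, 6424 and 6614, a log2 fold change of −0.06 (95% interval −0.16 to 0.05). Adam9 did not pass (0.21; limma, Benjamini-Hochberg adjusted p 0.0785). Of 10 genes for mannose 6-phosphate sorting, the route that Igf2r serves, 1 was higher and none lower. That gene was the lysosomal protease Ctsb, at 2722 and 2905 under control shRNA, against 3522 and 3633 under DcpS shRNA (0.35, SE 0.05; limma, Benjamini-Hochberg adjusted p 0.000885), while the sorting receptor Sort1 had −0.10 (limma, Benjamini-Hochberg adjusted p 0.375).

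**Figure D3:**
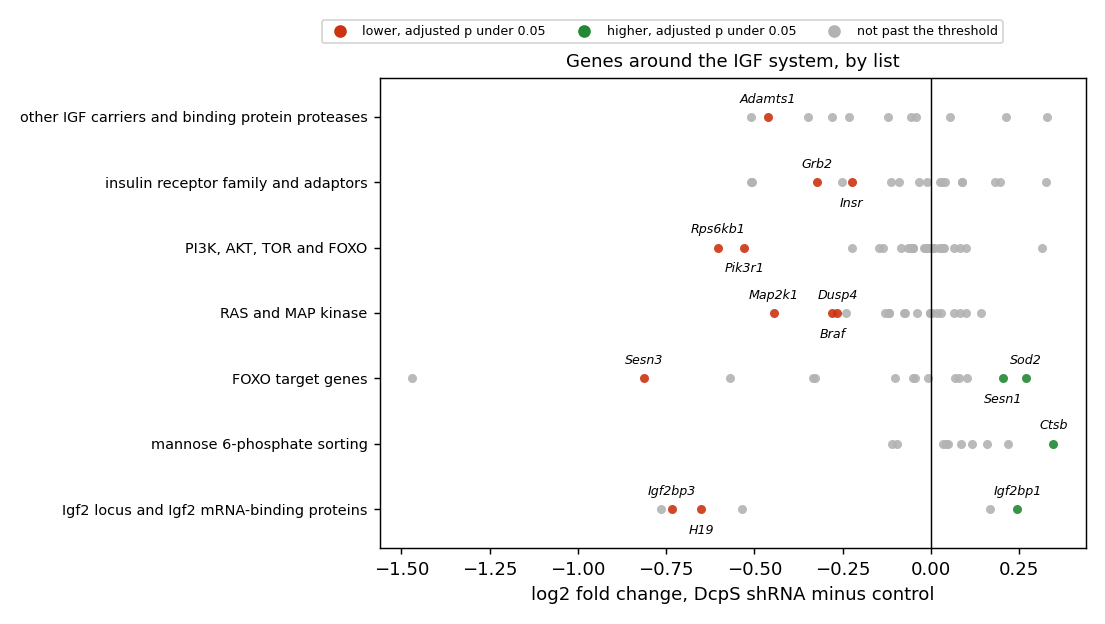
Log2 fold change (DcpS shRNA minus control) of the tested genes of 7 lists around the IGF system, 1 point per gene; red points were lower and green points higher at an adjusted p under 0.05 (limma), and grey points did not pass. Most points lie near 0, with named falls such as Sesn3 (−0.81) and Rps6kb1 (−0.60) standing out to the left.

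The 7-base words stood in 7 of the 10 lower genes of these lists that have an annotated 3′ UTR. Of 101 tested pathway genes with an annotated 3′ UTR, 20 had a word; of these 7 were lower, 1 was higher and 12 did not pass. Of the 81 without a word, 3 were lower, 3 higher and 75 did not pass. The words were picked for being frequent among genes lower in these same libraries, so these counts partly repeat that choice and test nothing. They also make no allowance for the length of the 3′ UTR. The 7 lower genes with a word were Grb2, Pik3r1, Rps6kb1, Braf, Map2k1, Sesn3 and Igf2bp3, and the higher one was Ctsb. When genes with a word were left out of the fit, an alternative chosen after seeing the data, 4 pathway genes were lower and 1 higher, and 4 members, Igf2r, Igfbp2, Igfbp5 and Igfbp7, were lower. One site of each signalling gene is printed so that the letters can be compared with those of Igf1r and Dcps. They lie at chr13:101684024-101684052 for Pik3r1, chr11:86502191-86502219 for Rps6kb1, chr9:64186581-64186609 for Map2k1, chr6:39610136-39610164 for Braf and chr11:115644484-115644512 for Grb2, all on the minus strand. Those of Sesn3, chr9:14325909-14325937, and Ctsb, chr14:63145615-63145643, are on the plus strand.
Pik3r1: gaaggctataaACGTGCAgcgctatgcaa
Rps6kb1: attgatgttttACGTGCAaacaacctgaa
Map2k1: tctatgttcagACGTGCAtctcatctgtg
Braf: aacataactatCACGTGCatacaagtctg
Grb2: tcctctgtagtCACGTGCctgcacaccgt
Sesn3: tttctggctgtCACGTGCaatggtgtgtt
Ctsb: ctgcttcctgtCACGTGCtctctcctgca

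Summed markers of meningeal fibroblasts and of mural cells lay between 56.7% and 62.9% of the control mean in the DcpS shRNA libraries. Each of these lists also held a marker with a log2 fold change above 0. Of 10 fibroblast markers 6 were lower and none higher, with a sum of 10551 and 11641 normalised reads under control shRNA, against 6605 and 6294 under DcpS shRNA; none was at 0 in any library. The collagen genes Col1a1 (log2 fold change −0.87), Col1a2 (−0.85) and Col3a1 (−0.77) were lower, as were Pdgfra (−0.63), Dcn (−0.47) and Lum (−0.37); Lum, Dcn and Pdgfra were not called in DESeq2, and Lum lost its call without control 1, control 2 or DcpS shRNA 1. Of the fibroblast markers that did not pass, Aldh1a2 (−0.60), Foxc1 (−0.47) and Twist1 (−0.42) lay below 0 and Slc6a13 (0.36) above. The collagen genes supplied most of the fibroblast sum, Col3a1 alone 4454 and 4943 against 2786 and 2719. Of 7 mural cell markers 2 of the 6 tested were lower, Acta2 (−1.93) and the receptor Pdgfrb (−0.72). Rgs5 (−1.27), Abcc9 (−0.86), Cspg4 (−0.09) and Tagln (0.51, at 143.7% of control) did not pass. The mural sum went from 753.5 and 760.9 to 476.1 and 436.9, again with none at 0. Pdgfrb supplied most of it, 506.4 and 534.3 under control shRNA, against 328.9 and 304.0 under DcpS shRNA. For these lists no sum without the most abundant genes was made.

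Of 4 tested endothelial markers 1 was lower, the receptor Kdr (log2 fold change −0.74), a call lost without control 2 and in DESeq2. The endothelial sum was 125.4 and 169.2 against 99.0 and 101.7, of which Kdr supplied 62.0%. Without Kdr, a sum chosen after its values were seen, it was 40.9 and 60.5 against 40.9 and 45.8, and the groups overlapped. Esam (−0.47), Cdh5 (−0.59, from 2 to 11 reads per library) and Pecam1 (0.93, from 6 to 22 reads per library) did not pass. Cldn5, a defining marker, was at 0 in control 2 and in DcpS shRNA 2, and Tek in DcpS shRNA 2. Of 5 tested choroid plexus markers 1 was lower, the thyroid hormone carrier Ttr (−0.38), which supplied 89.7% of the sum of 5571 and 5758 against 4255 and 4568. The sum without Ttr was 549.2 and 563.0 against 507.0 and 463.8. Folr1 (−0.47, at 71.8% of control), Otx2 (−0.44, at 73.7%), Clic6 (−0.04) and Kcne2 (0.48, at 140.2%) did not pass. Kl was at 0 in DcpS shRNA 2.

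None of 6 tested microglial markers was called, and their sum was 178.6 and 176.4 under control shRNA, against 163.5 and 175.4 under DcpS shRNA. The best expressed were Aif1 (log2 fold change −0.43) and Csf1r (−0.25). Cx3cr1 (−0.50) also lay below 0, while Tmem119 (0.56), C1qa (0.12) and C1qb (0.03) lay above. P2ry12 was at 0 in 1 library of each group. Astrocyte and radial glia markers overlapped between groups in their sum, 20600 and 19608 against 19251 and 19798, although 4 of 8 were lower: Aqp4 (−1.13), Gfap (−0.91), Gja1 (−0.67) and Hopx (−0.50). Vim (0.02) and Fabp7 (0.002) weighed most in that sum, with means of 8414 and 7602 normalised reads, so it says little of the lower genes. Both did not pass, nor did Slc1a3 (−0.12) and Aldh1l1 (−0.43, at 74.1% of control). The call of Gfap was lost without control 2 (−0.51), and Aqp4 and Hopx were not called in DESeq2. Neuronal markers summed to 94948 and 93577 against 90204 and 89667, with Snap25 (−0.26) and Syt1 (−0.22) lower and Rbfox3 (0.24) higher of 8. The call of Snap25 was lost without control 1, that of Rbfox3 without control 2 and that of Syt1 without either control; DESeq2 did not call Syt1 or Rbfox3. The part of cell make-up in the values of Igf2, the binding proteins and the receptors was not tested.

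**Figure D4:**
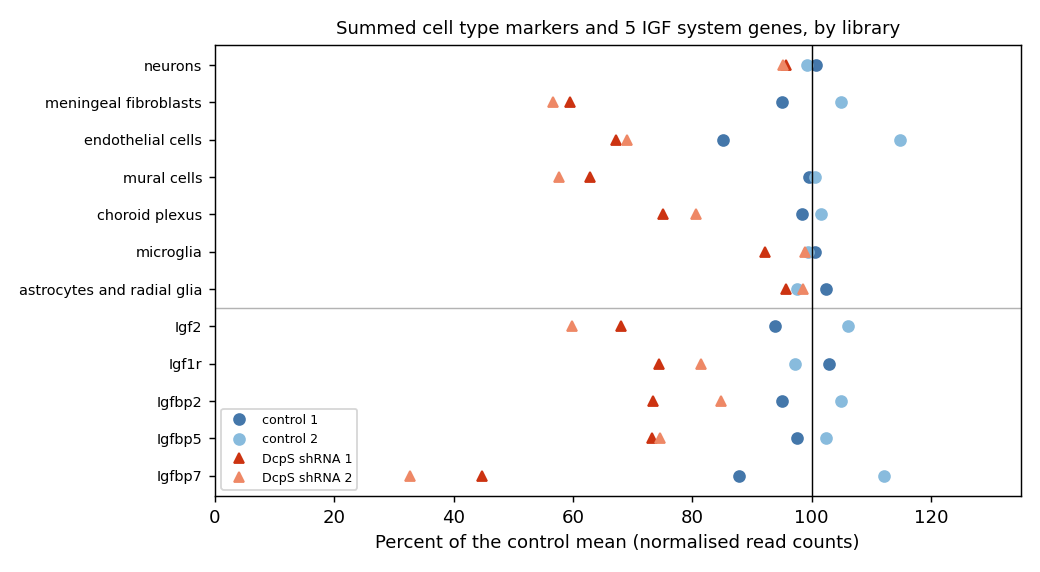
Summed normalised read counts of 7 marker lists (upper rows) and counts of 5 IGF system genes (lower rows), as percent of the mean of the controls; circles are control and triangles DcpS shRNA libraries. Fibroblast and mural sums lie between 56.7% and 62.9% of control in the DcpS shRNA libraries, and the neuronal sum at 95.1% and 95.7%.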

How the data were processed

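RNA sequencing of 4 cultures (2 control shRNA, 2 DcpS shRNA) was analysed from 1 deposited table. Its values are a signal scaled by the authors: dividing a column by its smallest value above 0 gave whole reads (100% of values, tolerance 0.001). The implied factors equalled median-of-ratios size factors computed here from the recovered reads. HISAT2 2.2.0, SAMtools 1.3.1, Picard, featureCounts, DESeq2 and the build GRCm38 are named, per the submitters' processing notes; no source used here states their strand or multi-mapping options.

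Genes passing edgeR's filterByExpr (minimum count 10) on recovered reads, 18110 in all, were tested with limma 3.58.1 on log2(value + 1), with trended, robust empirical Bayes variances, two-sided, Benjamini-Hochberg adjusted over all of them. Fold changes on this scale understate the change of low genes. An exact permutation test of 2 against 2 cannot go below 0.333, so p-values rest on spread pooled across genes. The scripts were tested on simulated data.

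edgeR 4.0.16 and DESeq2 1.42.0 on recovered reads, other scalings, pseudocounts, no filter, leaving out each library and a replicate block were alternatives. Members and lists were chosen with earlier results of these data known. Named genes were all members, Dcps, every called list gene and, in lists with fewer than 2 calls, the 2 best expressed by reads. Outside this rule, markers at 0 in a library, Dcx, Tubb3, Pecam1, Kcne2, Igf2os and Polr2b were named after their values were seen. So were Airn, Igf2bp2 and the other tested fibroblast, mural, endothelial, choroid plexus, microglial, astrocyte and radial glia markers that did not pass. Positions and lengths came from GENCODE M21, which matched 31591 symbols.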

Additional observations from a re-analysis of the deposited data

How the results depend on the processing

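Igf1r, Igfbp2, Igfbp5 and Igfbp7 stayed lower at an adjusted p under 0.05 in every alternative run that tested them (13 for Igf1r, 14 for each of the other 3). Igf2r did so except without control 2. The count of called members was 5 in edgeR, in DESeq2, under both other scalings and pseudocounts and without an expression filter, 4 to 6 when 1 library was left out, and 7 with the replicate block in limma or edgeR, where Igf2 (limma, adjusted p 0.0196) and Igfbp3 (0.0366) also passed. The library titles name a set 1 and a set 2 in each group but do not tie the sets to a litter or day. Same-numbered libraries did not deviate together (correlation 0.04). Whether the sets were paired is not known, and the main fit does not use them.

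The count over all genes was 1048 in the main setting, 448 in DESeq2, 1626 with the replicate block in limma, and 747 to 1745 when 1 library was left out, the highest without DcpS shRNA 1. The pathway lists gave 15 calls in the main setting, 10 in DESeq2, 20 (limma) and 21 (edgeR) with the replicate block, 13 to 20 when 1 library was left out, and 5 with the genes that hold a 3′ UTR word left out, since 8 of the 15 were no longer tested and Igf2bp1 (limma, adjusted p 0.0542) and Sesn1 (0.0577) no longer passed. No log2 fold change of a named member changed sign. The order of members per kb was the same for all 10 with the longest transcript in place of the union of exons. Depth limits Igf1, Igf2, Igfbp6 and Igfbp7, where single libraries held under 100 reads.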
